A study of Homo sapiens with 13 samples.

Results

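Full-length RSF1 was set against RSF1delUAB, a form of the protein without its UAB region, in SKOV3, a human ovarian carcinoma line established from ascites. The comparison uses 6 of the study's 13 RNA-seq libraries, chosen by their genotype label: 3 labelled RSF1 overexpression and 3 labelled RSF1delUAB overexpression. Another 3 SKOV3 libraries, with a control vector, give reference levels; they share in the fit's estimate of spread but stand in no contrast reported. No treatment is listed for any of the 9 SKOV3 libraries, so the 2 construct groups differ by label only in the UAB region, and both carry a construct on top of the RSF1 gene of the cell. The labels do not say which promoter drives the constructs, whether the cells are clones or pools, or whether the 3 libraries of a group came from separate cultures. The p-values rest on the spread among these libraries alone, part or all of which may be technical. The study's title names recognition of ubiquitinated histone H2A, and the comparison asks which RNA levels go with the region of RSF1 that carries it out.

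RSF1 joins the ISWI-type ATPase SMARCA5 in the remodelling and spacing factor complex, which assembles and spaces nucleosomes, and its gene is often gained in ovarian carcinoma. The UAB region lets it bind nucleosomes whose histone H2A carries ubiquitin, a mark that the Polycomb complex PRC1 places at genes it keeps silent. NF-kappaB is a family of transcription factors held inactive by inhibitor proteins until signals such as interleukin-1 or TNF release them. Their targets include cytokines, chemokines and the genes of their own inhibitors.

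The overexpressed gene was read first. RSF1 (ENSG00000048649, chromosome 11, 77660009 to 77820869 on GRCh38) stood at 631, 776 and 749.8 CPM with RSF1, at 459, 496 and 509 CPM with RSF1delUAB and at 44.0 ± 3.08 CPM (mean ± SD, n = 3) with control vector. CPM are a gene's counts per 1000000 counts of the library, with the library total scaled by TMM (trimmed mean of M values, which corrects for the makeup of a library). Both forms lay far above the control, and the groups did not overlap: the 3 RSF1 libraries were all above the 3 RSF1delUAB libraries. The log2 fold change of RSF1 over RSF1delUAB was 0.56 ± 0.07 (SE, adjusted p = 5.07e-06), so the 2 groups differ in the amount of RSF1 RNA as well as in the UAB region, and these cannot be told apart. Tested against a fold of 1.5 it did not pass (adjusted p = 1). Genes around RSF1, in the 10 Mb window from 70 to 80 Mb of chromosome 11, had a median log2 fold change of 0.30, with 41 of 77 protein-coding genes higher and 8 lower. Measured against that window median, RSF1 itself was 0.26 log2 units higher (adjusted p = 0.0108). A count per gene does not separate reads of the construct from those of the cell's own gene, or the full-length form from the deleted one.

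Total counts were 15194678 to 15723756 in the RSF1 libraries and 16152777 to 18748009 in the RSF1delUAB libraries. Log2 CPM correlated at 0.987 to 0.990 within RSF1, at 0.991 to 0.992 within RSF1delUAB and at 0.960 to 0.964 between the 2 forms. RSF1 replicate 1 stood apart from its group: 276 of 10023 genes with a mean of at least 10 CPM lay more than 1.5-fold from the other 2 RSF1 libraries, against 16 and 30 genes for replicates 2 and 3 and 2 genes for each RSF1delUAB library. Its deviation moved with gene length, with a median of 0.25 log2 units in the shortest 10% of genes and -0.21 in the longest 10%. Some chromosomal regions also moved as blocks. Of 238 windows of 10 Mb, 11 had a median below -0.3, among them those at 20 to 50 Mb of chromosome 17 (-0.46, -0.36 and -0.47) and at 100 to 140 Mb of chromosome 12 (-0.42 to -0.46), and the highest median was 0.33, at 0 to 10 Mb of chromosome 4. Copy number was not measured, so a difference in gene copies and a difference made by the construct cannot be told apart there.

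Of 16735 genes tested, 3088 (18.5%) were higher and 3380 (20.2%) lower with RSF1 than with RSF1delUAB at an adjusted p below 0.05, by edgeR's quasi-likelihood test with Benjamini-Hochberg adjustment. Most differences were small: 780 of the higher and 700 of the lower genes reached 2-fold, and 1756 and 1921 stayed under 1.5-fold. The median log2 fold change of all genes tested was 0.002, and the 2 groups did not overlap in 46.9% of all genes tested. Tested against a fold of 1.5, 639 genes were higher and 705 lower. Without RSF1 replicate 1 the counts were 3374 and 3707, and 5936 of the 6468 calls were shared, none with the opposite sign. In bulk RNA, fewer cells of a kind and less RNA per cell cannot be told apart. Signed values in brackets or after a gene's name that carry no unit are log2 fold changes of RSF1 over RSF1delUAB. Counts of list members are set against the 18.5% and 20.2% of all genes.

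**Figure D1:**
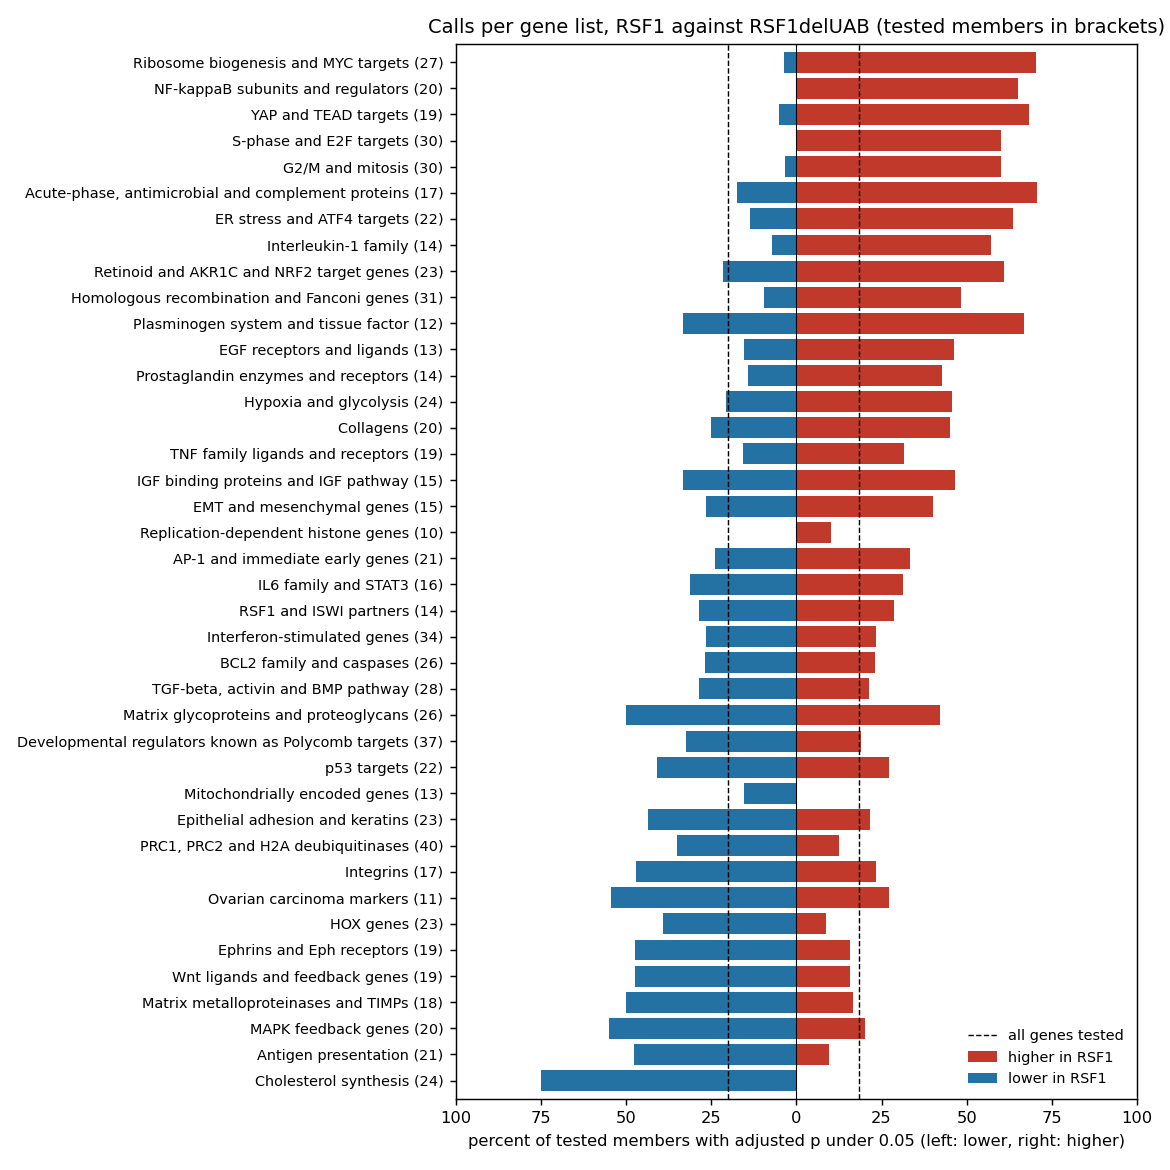
Share of tested members called higher (red, right) or lower (blue, left) with RSF1 than with RSF1delUAB, for gene lists with at least 10 tested members. Shares are in percent at an adjusted p under 0.05. The number of tested members is in brackets, and dashed lines mark the shares of all genes tested. Cholesterol synthesis has 18 of 24 members lower and none higher, while NF-kappaB regulators and S-phase genes have 13 of 20 and 18 of 30 higher and none lower.

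Secreted mediators of inflammation led the genes that were higher with full-length RSF1. Among the 12 largest positive differences in genes with a mean log2 CPM of at least 2 were IL1A, IL6, IL1B, CXCL8, SAA1 and SAA2. IL6 (chromosome 7, 22725884 to 22732002), the cytokine that drives the acute-phase response, stood at 52.3, 49.9 and 45.1 CPM with RSF1 and at 1.28, 2.31 and 3.14 CPM with RSF1delUAB. The groups did not overlap, and the control, at 0.704 ± 0.446 CPM, lay below both. Its log2 fold change was 4.47 ± 0.19 (SE, adjusted p = 2.98e-13). CXCL8, the chemokine that draws neutrophils, measured 383, 355 and 257 CPM with RSF1 against 18.1, 16.7 and 19.6 CPM with RSF1delUAB, a log2 fold change of 4.19 ± 0.13 (SE, adjusted p = 2.00e-15). Here RSF1 was above and RSF1delUAB below the control, at 61.6 ± 5.11 CPM.

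The genes of both forms of interleukin-1 followed another order. IL1A stood at 90.6, 88.6 and 85.1 CPM with RSF1 and at 3.99, 3.35 and 3.08 CPM with RSF1delUAB, and IL1B at 49.0, 48.9 and 43.4 CPM and 2.71, 2.95 and 1.60 CPM. Both had a control level above that of RSF1, at 181 ± 6.73 and 56.7 ± 0.873 CPM, so that RSF1delUAB was the low group. Log2 fold changes between the forms were 4.65 ± 0.10 (SE, adjusted p = 1.82e-17) for IL1A and 4.27 ± 0.13 (SE, adjusted p = 2.87e-15) for IL1B. CCL20, which attracts cells bearing the receptor CCR6, was near 0 both in the control (0.658 ± 0.0743 CPM) and with RSF1delUAB (0.106, 0.693 and 0.370 CPM). With RSF1 it reached 34.2, 33.5 and 28.9 CPM, 6.37 log2 units higher than with RSF1delUAB (SE 0.23, adjusted p = 2.34e-14).

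**Figure D2:**
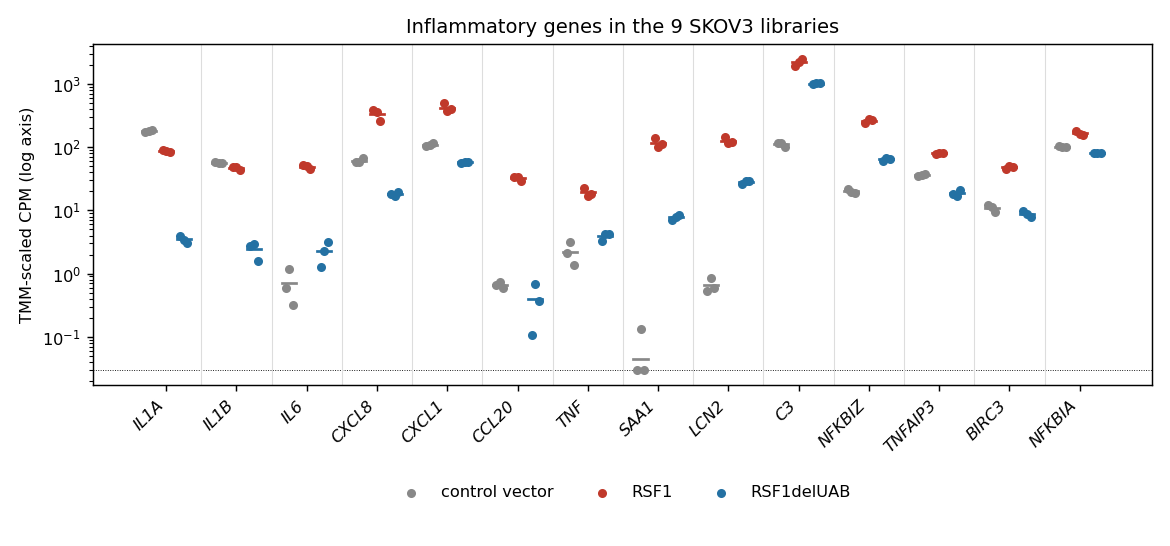
TMM-scaled CPM on a log axis for 14 inflammatory genes in each of the 9 SKOV3 libraries, with a bar at each group mean; points on the dotted line at the bottom are libraries at 0 counts. In each of the 14 genes the 3 RSF1 libraries (red) lie above the 3 RSF1delUAB libraries (blue), while the control (grey) lies above RSF1 for IL1A and IL1B and below RSF1delUAB for genes such as IL6, SAA1, LCN2 and C3.

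The promoters of IL6, CXCL8, CXCL1, CCL20 and TNFAIP3 are shown because these genes were among those that differed most between the forms and hold a kappaB-like motif close to their start. Each window runs from 250 bases before to 50 bases after the start in RefSeq, on GRCh38.p14, plus strand, and the capitals mark GGNNTTTCC or its reverse complement GGAAANNCC.
IL6 chr7:22726950-22727249: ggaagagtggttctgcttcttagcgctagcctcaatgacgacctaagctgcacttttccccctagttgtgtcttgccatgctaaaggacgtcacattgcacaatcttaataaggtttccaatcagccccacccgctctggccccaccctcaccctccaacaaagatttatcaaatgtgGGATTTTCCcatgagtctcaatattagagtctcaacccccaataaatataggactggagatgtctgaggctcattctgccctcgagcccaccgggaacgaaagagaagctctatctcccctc
CXCL8 chr4:73740319-73740618: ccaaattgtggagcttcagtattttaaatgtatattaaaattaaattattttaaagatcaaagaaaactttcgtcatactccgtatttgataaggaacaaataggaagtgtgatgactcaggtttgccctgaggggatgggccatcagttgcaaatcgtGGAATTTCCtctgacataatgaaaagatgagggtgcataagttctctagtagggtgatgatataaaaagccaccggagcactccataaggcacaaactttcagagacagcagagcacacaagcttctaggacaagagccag
CXCL1 chr4:73869143-73869442: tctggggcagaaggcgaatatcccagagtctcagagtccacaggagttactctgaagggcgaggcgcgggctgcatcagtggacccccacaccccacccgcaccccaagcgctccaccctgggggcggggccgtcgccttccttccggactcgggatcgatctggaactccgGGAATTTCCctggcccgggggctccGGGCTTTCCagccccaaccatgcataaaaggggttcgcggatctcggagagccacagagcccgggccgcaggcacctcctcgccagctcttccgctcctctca
CCL20 chr2:227813592-227813891: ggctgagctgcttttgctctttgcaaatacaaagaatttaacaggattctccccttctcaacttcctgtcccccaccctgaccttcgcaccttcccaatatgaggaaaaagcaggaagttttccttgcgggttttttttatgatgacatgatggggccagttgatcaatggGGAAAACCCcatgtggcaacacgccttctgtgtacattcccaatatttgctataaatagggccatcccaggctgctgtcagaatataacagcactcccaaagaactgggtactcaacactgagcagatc
TNFAIP3 chr6:137867009-137867308: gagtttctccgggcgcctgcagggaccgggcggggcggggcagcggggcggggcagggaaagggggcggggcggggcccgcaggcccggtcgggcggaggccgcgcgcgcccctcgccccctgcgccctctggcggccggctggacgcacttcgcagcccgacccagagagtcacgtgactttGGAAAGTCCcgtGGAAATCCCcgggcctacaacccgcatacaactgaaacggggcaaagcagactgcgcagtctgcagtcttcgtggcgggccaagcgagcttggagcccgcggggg
The match starts 72 bases before the start site in IL6, 91 in CXCL8 and 79 in CCL20, and CXCL1 (78 and 53) and TNFAIP3 (67 and 55) hold 2 matches each. Searched on both strands, the motif is in 782 of 11721 promoters of genes tested (6.67%), in 7.21% of those of the higher genes and in 5.68% of those of the lower genes. Of the cytokine and chemokine list members higher with RSF1, 8 of 24 promoters hold it (33.3%), and of NF-kappaB subunits and regulators 9 of 17 (52.9%), for genes whose promoter was in the table. Both lists hold known NF-kappaB targets, so their shares do not bear on the difference between the forms. A match describes the letters in this window only, and says nothing of binding in these cells.

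Neutrophil-attracting CXCL chemokines were tested for 4 of 9 listed genes, and 4 were higher, with a median log2 fold change of 2.93. CXCL1 (2.88, adjusted p = 2.19e-15), CXCL2 (2.98, adjusted p = 2.23e-11) and CXCL3 (2.33, adjusted p = 1.20e-07) are close copies that can share reads, so the split among them is uncertain. CXCL1 stood at 493, 380.3 and 397 CPM with RSF1, 57.2, 57.9 and 57.5 CPM with RSF1delUAB and 109.6 ± 5.95 CPM with control vector. Its groups did not overlap, and RSF1 was above the control while RSF1delUAB was below it. Of 4 other chemokines tested, CCL20 and CCL26 (1.33) were higher and none was lower.

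Within the interleukin-1 family, 8 of 14 tested members were higher and 1 lower, with a median of 0.84. Besides the ligands, the receptor chain IL18R1 (1.23, adjusted p = 3.97e-05) and the accessory chain IL1RAP (0.45, adjusted p = 0.00154) were higher. The decoy receptor IL1R2, which binds interleukin-1 without signalling, was the lower one, at 2.22, 2.22 and 2.33 CPM with RSF1 against 4.41, 5.08 and 5.61 CPM with RSF1delUAB (log2 fold change -1.15, adjusted p = 3.57e-04). The signalling receptor IL1R1 did not pass, with -0.11 (SE 0.08, adjusted p = 0.319). Most other members called higher were scarce, such as the receptor antagonist IL1RN at 1.13 ± 0.124 against 0.0740 ± 0.0642 CPM.

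The regulators of NF-kappaB differed along with the cytokines. Of 20 subunits and regulators, 13 were higher, none was lower and 7 did not pass, with a median of 0.61, and tested against a fold of 1.5 the higher ones were 5. Genes of the feedback arm came first. NFKBIZ, a nuclear cofactor of NF-kappaB that IL6 and LCN2 transcription is known to need, stood at 241, 279 and 269.6 CPM with RSF1, 60.2, 67.8 and 64.5 CPM with RSF1delUAB and 20.1 ± 1.36 CPM with control vector. The 3 levels did not overlap, and the log2 fold change between the forms was 2.04 ± 0.08 (SE, adjusted p = 3.96e-14).

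TNFAIP3, also called A20, which edits ubiquitin chains to end the signal, measured 80.2 ± 1.29 CPM with RSF1 and 18.7 ± 2.09 CPM with RSF1delUAB around a control of 36.6 ± 0.846 CPM. BIRC3, a ubiquitin ligase of TNF receptor complexes, had the largest fitted difference of the list, at 2.43 (SE 0.11, adjusted p = 5.43e-13). The inhibitor NFKBIA stood at 167 ± 14.3 CPM with RSF1, 80.6 ± 0.607 CPM with RSF1delUAB and 103 ± 2.18 CPM in the control (1.05, adjusted p = 2.49e-10), and its relatives NFKBIE (0.59) and NFKBIB (0.56) were also higher. Among the DNA-binding subunits, NFKB2 (0.98), NFKB1 (0.74) and RELB (0.64) passed. RELA, at 125 ± 6.45 against 121 ± 2.67 CPM (0.05, adjusted p = 0.61), and REL (-0.15, adjusted p = 0.568) did not, nor did the kinase subunits CHUK, IKBKB and IKBKG, at -0.02, 0.06 and -0.03.

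**Figure D3:**
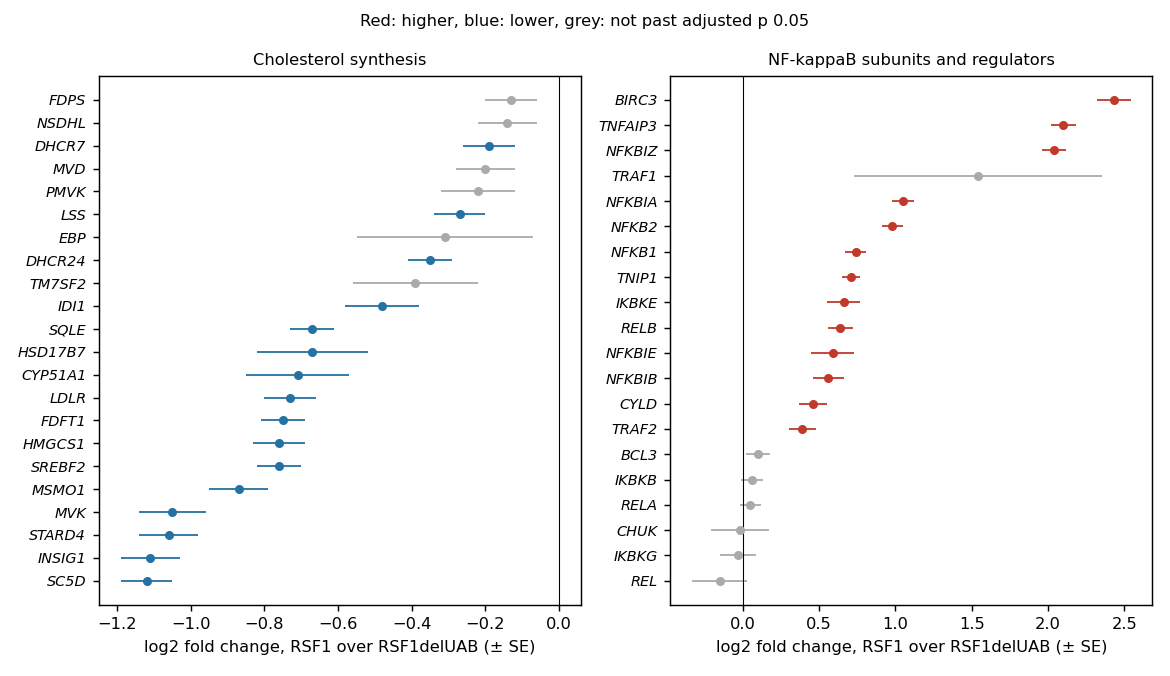
Log2 fold change of RSF1 over RSF1delUAB with its standard error for tested genes of cholesterol synthesis (left) and of the NF-kappaB subunits and regulators (right), red where higher, blue where lower and grey where the adjusted p is 0.05 or more. All cholesterol genes plotted lie below 0, and NF-kappaB genes reach 2.43 at BIRC3 while RELA and REL lie near 0.

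TNF, the ligand of the same pathway, stood at 22.6, 17.1 and 18.5 CPM with RSF1 against 3.30, 4.16 and 4.19 CPM with RSF1delUAB and 2.20 ± 0.884 CPM with control vector (log2 fold change 2.33 ± 0.18 SE, adjusted p = 2.48e-09). Full-length RSF1 was thus alone at the high level. Of 19 TNF family ligands and receptors tested, 6 were higher and 3 lower, with a median of 0.22. The higher ones included the costimulatory receptor TNFRSF9 (2.27) and the decoy receptor TNFRSF11B (1.61), and the lower ones the main TNF receptor TNFRSF1A (-0.37), TNFRSF21 (-0.38) and TNFSF9 (-0.45). Death receptors FAS, TNFRSF10A and TNFRSF10B did not pass, at -0.19, 0.21 and -0.06.

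Among colony-stimulating factors and other cytokines, 5 of 7 tested members were higher and 1 was lower. CSF1, the growth factor of macrophages, stood at 452, 462 and 503 CPM with RSF1 and at 145, 143 and 148 CPM with RSF1delUAB. These groups lay on either side of the control, at 263 ± 11.3 CPM, and the log2 fold change was 1.70 ± 0.06 (SE, adjusted p = 4.88e-14). IL32 was also higher (53.1 ± 8.60 against 14.5 ± 2.74 CPM), and EBI3, a subunit shared by IL27 and IL35, was lower at 1.47 ± 0.250 against 2.93 ± 0.618 CPM. The call on EBI3 was lost without RSF1 replicate 2 or 3 or without RSF1delUAB replicate 2.

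The IL6 family list moved in both directions, with 5 of 16 higher, 5 lower and a median of -0.08. The higher members were the ligands IL6, LIF, at 69.6 ± 2.83 against 30.4 ± 0.249 CPM (1.19, adjusted p = 7.46e-10), and CLCF1 (0.49) and the kinases JAK1 (0.54, adjusted p = 1.67e-06) and PIM1 (0.68, adjusted p = 9.25e-05). STAT3, the transcription factor that IL6 activates, stood at 205, 233 and 235 CPM with RSF1, 436, 447 and 445 CPM with RSF1delUAB and 318 ± 8.70 CPM with control vector. The RSF1 libraries were the lowest of the 3 groups, with a log2 fold change of -0.98 ± 0.06 (SE, adjusted p = 1.81e-10). STAT3 lies in the chromosome 17 window whose median was -0.47, and measured against that median it was -0.51 (adjusted p = 2.19e-06). Its feedback inhibitor SOCS3 (-0.80, adjusted p = 3.12e-06) and the receptor IL6R (-0.80, adjusted p = 1.09e-05) were also lower, while the shared receptor chain IL6ST did not pass (-0.04).

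Acute-phase, antimicrobial and complement genes were mostly higher, 12 of 17 tested, with 3 lower (1 without RSF1delUAB replicate 3) and a median of 0.84. The serum amyloid gene SAA1 stood at 139.8, 101 and 114 CPM with RSF1, 7.12, 7.97 and 8.44 CPM with RSF1delUAB and 0.0442 ± 0.0766 CPM with control vector (log2 fold change 3.92 ± 0.13 SE, adjusted p = 5.08e-15), and SAA2, a near-identical copy that can share its reads, at 33.3 ± 0.987 against 2.64 ± 0.569 CPM. Both forms were above a control near 0, RSF1 by far the most. Lipocalin LCN2, which binds bacterial siderophores, was at 143, 116 and 122 CPM against 26.2, 28.8 and 29.5 CPM (2.17, adjusted p = 1.89e-13). C3, the central complement protein, reached 1962, 2224 and 2449 CPM with RSF1 and 987, 1022 and 1034 CPM with RSF1delUAB, with a log2 fold change of 1.12 ± 0.07 (SE, adjusted p = 1.87e-10).

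All 6 construct libraries were thus above the control for C3, at 112 ± 8.81 CPM, and the groups did not overlap. Complement regulators split: CD55 (0.84) and CD59 (0.40) on the cell surface were higher, and CFI, the protease that inactivates C3b, was at 1.90 ± 0.379 against 8.91 ± 0.629 CPM (-2.23, adjusted p = 1.31e-07). C1R and C1S did not pass, at -0.03 and -0.09. Prostaglandin genes were higher for 6 of 14 and lower for 2. The inducible cyclooxygenase PTGS2 was at 5.41, 6.67 and 6.16 CPM against 0.851, 1.91 and 1.11 CPM (2.24, adjusted p = 3.67e-07), and the synthase PTGES at 5.85 ± 0.434 against 2.72 ± 0.535 CPM (1.10, adjusted p = 1.66e-05). ALOX5, the lipoxygenase that starts leukotriene synthesis, was among the 12 largest negative differences, at 1.89, 2.48 and 2.33 CPM with RSF1 and 21.2, 21.7 and 21.6 CPM with RSF1delUAB (log2 fold change -3.26 ± 0.16 SE, adjusted p = 3.12e-12). Both genes separated the groups, in opposite directions. The lower call on PTGS1 (-0.37, adjusted p = 0.0455) was lost under several settings of the test.

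Interferon-stimulated genes did not move as a block: 8 of 34 were higher and 9 lower, shares close to those of all genes, with a median of -0.12 and 5 lower without RSF1delUAB replicate 3. Guanylate-binding proteins GBP1 (1.70, adjusted p = 5.55e-09) and GBP2 (0.72) were higher and the RNA sensor OAS1 (-2.10, adjusted p = 1.77e-08, in the window at 110 to 120 Mb of chromosome 12 with a median of -0.46) was lower. IRF1 did not pass (0.07). Antigen presentation leaned the other way, with 2 of 21 higher and 10 lower and a median of -0.26. HLA-B, a classical class I heavy chain, stood at 235, 182 and 190.1 CPM with RSF1, 653, 615 and 624 CPM with RSF1delUAB and 163 ± 1.32 CPM with control vector (log2 fold change -1.64 ± 0.08 SE, adjusted p = 1.76e-12). RSF1 was close above the control, and RSF1delUAB was the high group.

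Other class I chains and their partners were lower too: HLA-C (-0.99), HLA-E (-0.62), the light chain B2M (-0.37), the immunoproteasome subunit PSMB9 (-1.0, adjusted p = 5.07e-09) and the peptide transporter TAP1 (-0.57, adjusted p = 1.81e-06). HLA genes share reads with one another, so the split among them is uncertain. The 2 higher members, the chaperones CALR (0.31) and PDIA3 (0.23), work in the endoplasmic reticulum well beyond this pathway.

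Genes of the extracellular matrix separated the forms in both directions. POSTN, periostin (chromosome 13, 37562583 to 37598844), stood at 70.7, 77.4 and 69.6 CPM with RSF1, at 0 counts in the 3 RSF1delUAB libraries and at 0, 0.199 and 0.129 CPM in the control libraries. Full-length RSF1 alone thus gave a clear level, at least 1270-fold higher than with RSF1delUAB when the latter is set to 3 counts over the group (adjusted p = 7.84e-16). FN1, fibronectin, measured 5875, 8605 and 9739 CPM with RSF1, 2926, 3069 and 3240 CPM with RSF1delUAB and 309 ± 23.0 CPM with control vector. Both forms were far above the control and did not overlap, although RSF1 replicate 1, the library that reads long genes low, lay nearest to RSF1delUAB. The log2 fold change of FN1 was 1.39 ± 0.11 (SE, adjusted p = 6.79e-09) with all libraries and 1.57 without that replicate.

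In the list of matrix glycoproteins and proteoglycans, 11 of 26 tested members were higher and 13 lower. Thrombospondin THBS1 (311 ± 37.2 against 117 ± 3.83 CPM) and the laminin chains LAMB3 (1.5) and LAMA3 (0.72), which belong to the laminin of hemidesmosomes, were higher. SPARC, a calcium-binding matrix protein, was on the lower side at 4.83, 3.18 and 5.09 CPM with RSF1 and 31.7, 27.6 and 32.0 CPM with RSF1delUAB (log2 fold change -2.80 ± 0.14 SE, adjusted p = 4.10e-12), as was the proteoglycan LUM at 22.6, 23.8 and 17.6 CPM against 78.1, 86.4 and 77.1 CPM (log2 fold change -1.92 ± 0.10 SE, adjusted p = 5.98e-12). Here RSF1delUAB was the high group, with controls of 2.28 ± 0.155 and 0.591 ± 0.132 CPM. The related DCN (-1.11) and the fibulin FBLN2 (-1.41) were lower as well, and LUM and DCN lie in a chromosome 12 window with a median of -0.26.

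**Figure D4:**
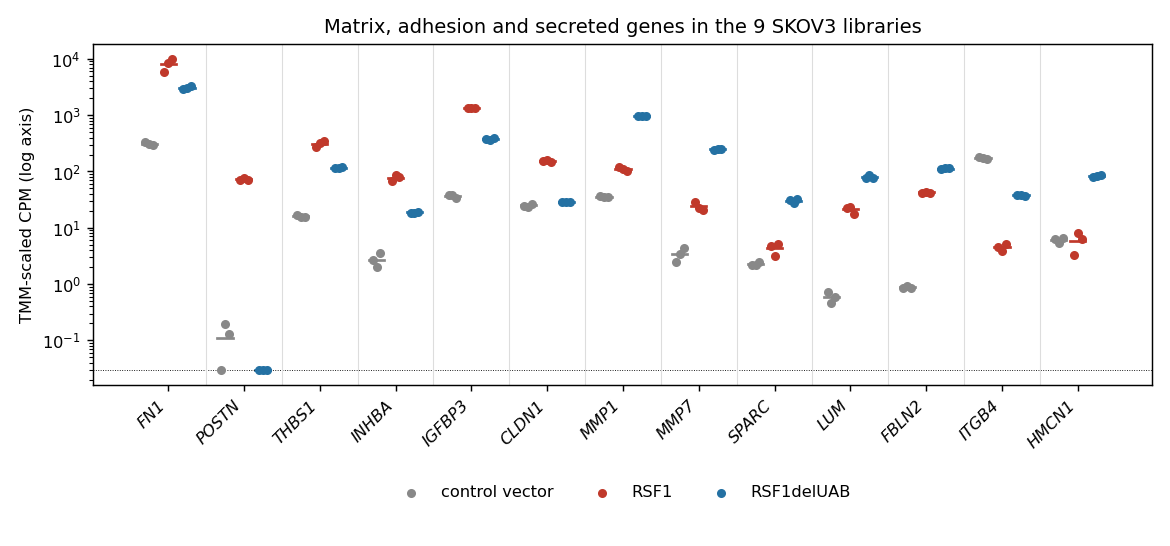
TMM-scaled CPM on a log axis for 13 genes of matrix, adhesion and secreted factors in each of the 9 SKOV3 libraries, with a bar at each group mean; points on the dotted line at the bottom are libraries at 0 counts. RSF1 (red) lies above RSF1delUAB (blue) for the 6 genes from FN1 to CLDN1 and below it for the 7 genes from MMP1 to HMCN1.

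Matrix metalloproteinases and their inhibitors were lower for 9 of 18 and higher for 3, with a median of -0.34. MMP1, the interstitial collagenase, stood at 119.6, 109.6 and 101 CPM with RSF1 and 955, 948 and 961 CPM with RSF1delUAB (log2 fold change -3.12 ± 0.07 SE, adjusted p = 2.05e-17). MMP7, matrilysin, stood at 28.9, 22.4 and 20.4 CPM against 244, 248 and 253 CPM (log2 fold change -3.38 ± 0.11 SE, adjusted p = 5.01e-15). In both genes the control was the lowest group, at 35.4 ± 0.503 and 3.41 ± 0.908 CPM, and RSF1 lay between it and RSF1delUAB. The gelatinase MMP2 went the other way by a small margin, at 206 ± 13.2 against 163 ± 7.52 CPM (0.33, adjusted p = 4.12e-04), and ADAMTS1 was higher (1.54). The inhibitors TIMP1 and TIMP2 were lower, at -0.31 and -0.34, and MMP14 did not pass (-0.18).

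The plasminogen and clotting list had no member that failed the test: 8 of 12 were higher and 4 lower, with a median of 0.71. Tissue factor F3 stood at 226, 215 and 211 CPM against 60.4, 61.2 and 63.1 CPM (log2 fold change 1.82 ± 0.06 SE, adjusted p = 7.71e-15), both below the control at 982 ± 18.4 CPM. The urokinase PLAU (0.78), its receptor PLAUR (0.77) and the activator PLAT (0.64) were higher, and the thrombin receptor F2R was lower (-1.07, adjusted p = 2.64e-09).

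Collagens were higher for 9 of 20 tested genes and lower for 5. The basement membrane chains COL4A1 (500.3 ± 67.9 against 282 ± 7.38 CPM, 0.83, adjusted p = 6.19e-08) and COL4A2 (0.51, adjusted p = 1.42e-05) were higher together, and COL16A1 had the largest fitted difference among those abundant enough to be named (2.81). COL1A2 was lower (-1.22, adjusted p = 1.86e-06) while its partner chain COL1A1 did not pass (0.12, adjusted p = 0.499). Integrins leaned lower, 8 of 17 with 4 higher. ITGB4, the hemidesmosome integrin chain, stood at 4.50, 3.81 and 5.16 CPM with RSF1, 37.8, 37.4 and 37.3 CPM with RSF1delUAB and 172 ± 7.21 CPM with control vector (log2 fold change -3.06 ± 0.10 SE, adjusted p = 7.51e-15). Both forms were below the control, RSF1 the more so, and its partner ITGA6 was lower too (-0.55, adjusted p = 1.36e-06). ITGB1, the most widely shared beta chain, was higher by a small margin (0.20, adjusted p = 0.00897), a call lost against its window median.

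Of EMT and mesenchymal genes, 6 of 15 were higher and 4 lower. The receptor kinase AXL (1.02, adjusted p = 6.82e-11) and the collagen crosslinking enzymes LOX (0.92, adjusted p = 3.31e-10) and LOXL2 (0.78, adjusted p = 1.26e-08) were higher. Of the transcription factors of the programme, ZEB1 (-0.29) and SNAI1 (-1.40, adjusted p = 5.72e-05) were lower. ZEB2 was higher, with 0.47 (adjusted p = 0.00133) in the fit without RSF1 replicate 1. SNAI2 passed narrowly as higher (0.17, adjusted p = 0.0498), a call lost without RSF1 replicate 1 (0.16, adjusted p = 0.0612) or 3 and without any 1 RSF1delUAB library, and VIM and TWIST1 did not pass (0.12 and -0.16). Epithelial adhesion and keratin genes were higher for 5 of 23 and lower for 10. CLDN1, a tight-junction claudin, measured 152, 159 and 148 CPM with RSF1 against 29.2, 28.6 and 28.8 CPM with RSF1delUAB (log2 fold change 2.40 ± 0.07 SE, adjusted p = 2.00e-15), with the control at 25.1 ± 1.48 CPM. RSF1delUAB was close to the control here and RSF1 was apart from both. Other junction genes, OCLN (-0.86, adjusted p = 8.01e-07), TJP3 (-1.62, adjusted p = 2.82e-06) and JUP (-0.57, adjusted p = 4.16e-07, in a window with a median of -0.47), were lower, and CDH1 was scarce in both forms, at 0.635 ± 0.442 and 0.329 ± 0.274 CPM. Measured against window medians, or without RSF1delUAB replicate 2, 6 in place of 10 epithelial genes were lower.

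YAP and TEAD, the transcription factors of the Hippo pathway that respond to cell shape and matrix stiffness, had 13 of 19 list members higher and 1 lower, with a median of 0.58. The matricellular target CCN1 stood at 87.4, 78.0 and 86.4 CPM with RSF1 and 33.1, 26.1 and 27.5 CPM with RSF1delUAB (log2 fold change 1.54 ± 0.09 SE, adjusted p = 3.98e-11). The groups did not overlap, and RSF1delUAB lay near the control at 24.7 ± 1.65 CPM. CCN2 (0.78, adjusted p = 2.76e-06), AJUBA (1.05, adjusted p = 2.98e-10) and AMOTL2 (0.69, adjusted p = 3.50e-07) were higher, and ANKRD1, at 1 count in each of 2 RSF1delUAB libraries, had an RSF1 over RSF1delUAB ratio of 31.2 (95% counting interval 8.24 to 264). The factors themselves did not pass, with YAP1 at -0.05, WWTR1 at 0.01, TEAD1 at 0.01 and TEAD4 at 0.04. The TEAD motif GGAATG, searched on both strands of the same promoter windows, is in 8 of 13 promoters of the list (61.5%) and in 11.4% of those of all genes tested. The list was made of known targets, so its share does not bear on the difference between the forms. Of all higher genes 12.1% hold the motif and of all lower genes 10.1%, and of those past 2-fold 17.4% and 9.74%. Its share over all RefSeq promoters is 14.3%. Another motif searched, the AP-1-like TGANTCA, is in 5.39% of promoters of all genes tested. Among genes past 2-fold it is in 10.7% of the higher and 8.12% of the lower ones. A match says nothing of binding in these cells.

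Among TGF-beta, activin and BMP genes, 6 of 28 were higher and 8 lower, with a median of -0.09. INHBA, the activin A subunit, measured 66.6, 86.2 and 79.7 CPM with RSF1, 18.3, 18.7 and 19.2 CPM with RSF1delUAB and 2.73 ± 0.785 CPM with control vector (log2 fold change 2.05 ± 0.11 SE, adjusted p = 7.52e-12). The 3 groups lay in that order without overlap. The ligand genes themselves split, with TGFB2 higher (1.86, adjusted p = 2.43e-06) and TGFB1 lower (-0.54, adjusted p = 6.62e-06), as was the latent binding protein LTBP1 (-1.36, adjusted p = 1.18e-11). Among common response genes, ID3 was higher (1.19), ID2 lower (-1.48), and ID1 and SMAD7 did not pass (-0.08 and 0.06).

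Several EGF family ligands were higher with RSF1. Epiregulin, EREG, stood at 19.4, 19.8 and 20.8 CPM with RSF1 and 0.266, 0.173 and 0.0616 CPM with RSF1delUAB, where the control had 1.46 ± 0.472 CPM (log2 fold change 6.80 ± 0.26 SE, adjusted p = 7.82e-14). Of 13 tested members, 6 were higher, among them BTC (0.76, adjusted p = 0.00116) and NRG1 (0.43, adjusted p = 4.15e-04), and 2 lower (1 without RSF1delUAB replicate 3). EGFR, AREG and TGFA did not pass, at 0.30, 0.28 and 0.10, although EGFR passed at 0.49 (adjusted p = 9.75e-12) without RSF1 replicate 1. ERBB2 (chromosome 17, 39687914 to 39730426), the receptor gene that SKOV3 is known to carry in extra copies, stood at 2139, 2525 and 2816 CPM with RSF1, 7616, 7293 and 7794 CPM with RSF1delUAB and 8430 ± 358 CPM with control vector. RSF1delUAB was close below the control, and the 3 RSF1 libraries were lower than all others, with a log2 fold change of -1.60 ± 0.07 (SE, adjusted p = 8.78e-13).

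Most neighbours of ERBB2 were lower too, within a wider lowered part of chromosome 17. Of 39 protein-coding genes tested within 1 Mb of its start, 36 were lower, none was higher and 3 did not pass, with a median of -0.64 and a range from -2.15 for PPP1R1B to 0.06 for CDC6. Over the whole window at 30 to 40 Mb 67.4% of protein-coding genes were lower (median -0.36). At 40 to 50 Mb 58.2% were lower (median -0.47), against 20.2% of all genes tested. PPP1R1B, which lies 61 kb before ERBB2, stood at 92.6, 81.4 and 89.0 CPM with RSF1 and 408, 366 and 394 CPM with RSF1delUAB (-2.15, adjusted p = 3.28e-15). MIEN1 (-1.59, adjusted p = 1.33e-14), GRB7 (-1.29, adjusted p = 2.78e-12) and STARD3 (-0.93, adjusted p = 4.72e-10), which are often amplified together with ERBB2, were lower by unequal amounts, and PGAP3 among them by less (-0.60). The region was chosen after its values were seen. The place of the control differed among the neighbours. MIEN1 had a mean of 1385 CPM in the control, with RSF1delUAB nearer to it (1140) than RSF1 (378.4). GRB7 had a control mean of 156.2 CPM, with RSF1 nearer to it (132.9) and RSF1delUAB above (324.6). For PPP1R1B both forms were below the control mean of 1383 CPM. The number of gene copies was not measured in any group. A copy number that differs between the forms, in either direction, cannot be told apart from an effect of the UAB region. Against the median of its 10 Mb window ERBB2 was -1.24 (adjusted p = 3.97e-11).

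**Figure D5:**
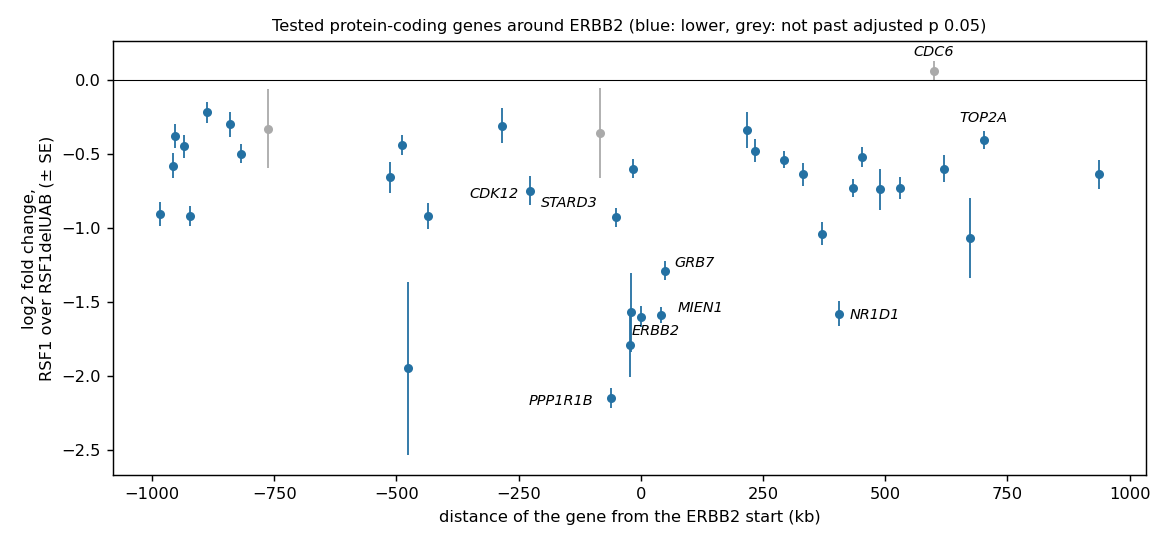
Log2 fold change of RSF1 over RSF1delUAB with its standard error for the 39 tested protein-coding genes within 1000 kb of ERBB2, by distance of the gene start from the ERBB2 start in kb, blue where lower and grey where the adjusted p is 0.05 or more. All but CDC6 lie below 0, and 3 of the 4 lowest values lie within 61 kb of the ERBB2 start, the other being the scarce STAC2 at -477 kb.

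The list of MAPK feedback genes holds genes that rise with ERK signalling, only some of which dampen it. Of 20 members 11 were lower and 4 higher, with a median of -0.33. The ETS factors ETV4 (-1.92, adjusted p = 4.10e-12, in the chromosome 17 window with a median of -0.47 and at -1.45 against it) and ETV5 (-1.34, adjusted p = 1.34e-10) and the Sprouty genes SPRY2 (-1.34, adjusted p = 3.26e-08), SPRY1 (-1.28, adjusted p = 1.05e-06) and SPRY4 (-0.87, adjusted p = 1.06e-06) were lower. ETV5 stood at 18.2, 23.0 and 21.9 CPM with RSF1, 52.5, 53.5 and 54.3 CPM with RSF1delUAB and 69.3 ± 2.10 CPM with control vector. RSF1 was lower than both without overlap. DUSP1, a phosphatase of p38 and JNK, was on the higher side (105 ± 4.35 against 35.3 ± 0.752 CPM, 1.57, adjusted p = 5.13e-13), and DUSP4, DUSP5 and PHLDA1 did not pass (-0.16, -0.19 and 0.05).

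AP-1 and immediate early genes, which respond to the same signals within minutes, were higher for 7 of 21 and lower for 5. FOS was among the 12 largest negative differences, at 5.15, 3.30 and 4.59 CPM with RSF1 and 44.0, 45.2 and 43.1 CPM with RSF1delUAB (log2 fold change -3.34 ± 0.13 SE, adjusted p = 5.06e-14). EGR1 stood at 34.5, 35.6 and 40.5 CPM against 164, 157 and 161 CPM (log2 fold change -2.12 ± 0.08 SE, adjusted p = 3.43e-14). RSF1 was just below the control level of FOS, 6.20 ± 0.550 CPM, so that RSF1delUAB was the high group. JUN, at 313 ± 16.4 against 155 ± 7.35 CPM (1.02, adjusted p = 2.05e-10), FOSL1 (1.13, adjusted p = 7.97e-10), MYC (0.92, adjusted p = 1.16e-09) and KLF6 (1.27, adjusted p = 6.30e-12) were higher with RSF1.

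Wnt ligands and feedback genes were lower for 9 of 19 and higher for 3, with a median of -0.73. AXIN2, a feedback inhibitor and common readout of the beta-catenin branch, stood at 2.74, 1.97 and 2.52 CPM with RSF1, 17.1, 15.2 and 17.9 CPM with RSF1delUAB and 3.83 ± 0.814 CPM with control vector (log2 fold change -2.79 ± 0.17 SE, adjusted p = 6.09e-11). TCF7, a DNA-binding partner of beta-catenin, stood at 1.39 ± 0.637 against 10.3 ± 0.859 CPM (log2 fold change -2.89 ± 0.20 SE, adjusted p = 5.00e-10), both below the control at 28.8 ± 1.15 CPM. RSF1 was the lowest group for both genes. The secreted inhibitors split, since DKK1 was higher (9.25 ± 0.937 against 1.31 ± 0.324 CPM, 2.80, adjusted p = 3.82e-10) and SFRP1 lower (21.8 ± 0.787 against 105 ± 6.06 CPM, -2.27, adjusted p = 6.02e-15). Among ligands WNT7B (1.09) and WNT5A (0.52) were higher and WNT7A (-1.39) and WNT9A (-1.57) lower.

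IGF pathway genes showed 7 of 15 higher and 5 lower. IGFBP3, a binding protein that holds IGF outside the cell, measured 1337, 1331 and 1339 CPM with RSF1, 374, 361 and 391 CPM with RSF1delUAB and 36.5 ± 2.06 CPM with control vector (log2 fold change 1.83 ± 0.06 SE, adjusted p = 5.82e-15). The receptor IGF1R went the other way, at 5.22, 8.77 and 11.1 CPM against 52.8, 52.3 and 55.2 CPM (log2 fold change -2.67 ± 0.15 SE, adjusted p = 2.08e-11), with a control of 33.5 ± 3.17 CPM. RSF1 was the lowest group of the receptor and the highest of the binding protein. Without RSF1 replicate 1, which was the lowest library of this long gene, the log2 fold change of IGF1R was -2.43. INSR and IRS1 did not pass (0.14 and -0.17). Ephrins and Eph receptors were lower for 9 of 19 and higher for 3, with the ligands EFNA2 to EFNA4 and EFNB1 to EFNB3 all on the lower side. EPHA4 had the largest higher value (1.73, adjusted p = 3.57e-08) and EPHA2 a small one (0.46, adjusted p = 4.78e-06).

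Of the lists with at least 20 tested genes, cholesterol synthesis had the largest share on one side: 18 of 24 genes were lower, none was higher, and the other 6 had negative values that did not pass. The median was -0.67, and tested against a fold of 1.5 the lower ones were 9. INSIG1, a sterol sensor whose gene SREBP factors switch on, stood at 55.4, 49.2 and 45.6 CPM with RSF1, 110.4, 108 and 107 CPM with RSF1delUAB and 89.7 ± 3.28 CPM with control vector (log2 fold change -1.11 ± 0.08 SE, adjusted p = 3.12e-10). The LDL receptor stood at 163, 183 and 202 CPM against 297, 289 and 321 CPM (log2 fold change -0.73 ± 0.07 SE, adjusted p = 9.99e-08). RSF1 was the lowest group for both. The synthase HMGCS1 (-0.76, adjusted p = 1.21e-08), an early enzyme of the pathway, and the transcription factor SREBF2 (-0.76, adjusted p = 9.60e-09) were lower, and FDPS and MVD did not pass (-0.13 and -0.20).

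In the neighbouring branch of fatty acid synthesis, 2 genes were looked up after other values had been seen. SCD, the desaturase that makes oleate, stood at 118, 138 and 129.6 CPM with RSF1, 610.1, 608 and 642 CPM with RSF1delUAB and 278 ± 5.92 CPM with control vector (log2 fold change -2.27 ± 0.07 SE, adjusted p = 1.76e-15). RSF1 was below the control and RSF1delUAB above it, with no overlap. FASN was lower by less, at 514 ± 78.5 against 675 ± 44.0 CPM (-0.39, adjusted p = 0.00109).

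Retinoid, AKR1C and NRF2 target genes were higher for 14 of 23 and lower for 5, with a median of 0.57. DHRS3, which turns retinal back into retinol and is itself induced by retinoic acid, stood at 69.4, 62.2 and 58.6 CPM with RSF1, 5.53, 4.16 and 4.74 CPM with RSF1delUAB and 15.9 ± 0.667 CPM with control vector (log2 fold change 3.71 ± 0.11 SE, adjusted p = 2.00e-15). ALDH1A3, which makes retinoic acid, stood at 15.2 ± 1.16 against 2.29 ± 0.218 CPM (2.72, adjusted p = 1.56e-11), and the receptor RARB (1.08, adjusted p = 1.20e-04) and the carrier CRABP2 (1.06, adjusted p = 4.41e-06) were higher. NRF2 targets split, with NQO1 (0.62, adjusted p = 9.88e-07) and HMOX1 (0.66, adjusted p = 2.09e-07) higher, the cystine transporter SLC7A11 (-0.47, adjusted p = 2.84e-04) and GCLC (-0.45, adjusted p = 6.09e-05) lower, and TXN, GCLM and SRXN1 not passing (-0.00, 0.21 and 0.12). AKR1C1 (1.13) is a close copy of AKR1C2 (1.04), so their split is uncertain.

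Hypoxia and glycolysis genes were higher for 11 of 24 and lower for 5, mostly by small amounts, and tested against a fold of 1.5 there were 1 and 2. BNIP3 (0.84, adjusted p = 1.15e-06) and HK2 (0.62, adjusted p = 3.32e-05) were higher, CA9 was lower (-2.53, adjusted p = 2.81e-10), and VEGFA, LDHA and GAPDH did not pass (0.16, 0.01 and -0.05). ER stress and ATF4 targets were higher for 14 of 22 and lower for 3, with a median of 0.36. The chaperone HSPA5 (0.32, adjusted p = 8.34e-05), the factor ATF4 (0.27, adjusted p = 0.0043) and its targets TRIB3 (0.43) and SESN2 (0.66) were higher. Of the serine synthesis enzymes, PSAT1 was lower (-0.56, adjusted p = 1.33e-06) and PHGDH higher, with 0.58 (adjusted p = 1.34e-12) in the fit without RSF1 replicate 1.

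Genes of cell division differed in number more than in size. S-phase and E2F targets were higher for 18 of 30 and lower for none, with a median of 0.25. RFC3, a subunit of the clamp loader, was the 1 member to pass against a fold of 1.5, at 37.1, 38.5 and 31.1 CPM with RSF1 and 14.5, 16.4 and 16.8 CPM with RSF1delUAB (log2 fold change 1.17 ± 0.10 SE, adjusted p = 6.02e-09). TK1 (0.52, adjusted p = 7.95e-06) and CDT1 (0.55, adjusted p = 1.09e-04) were higher, and PCNA, MCM6 and TYMS did not pass (0.06, 0.06 and 0.14). G2/M and mitosis genes were higher for 18 of 30 with a median of 0.20, among them CDC20 (0.51, adjusted p = 1.04e-06), AURKA (0.30) and CCNB1 (0.31), and none passed against a fold of 1.5. The 1 lower member, TOP2A (-0.41, adjusted p = 2.24e-05), lies 701 kb from ERBB2, and MKI67 did not pass (0.05, adjusted p = 0.788) except without RSF1 replicate 1 (0.24, adjusted p = 6.39e-05).

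Ribosome biogenesis and MYC targets followed with 19 of 27 higher, 1 lower and a median of 0.28. MYC itself was among the higher genes above. SRM, a polyamine synthase (0.68, adjusted p = 6.65e-07), the nucleolar methyltransferase FBL (0.65, adjusted p = 2.38e-06) and NOP56 (0.54, adjusted p = 2.85e-06) were higher, and LYAR (1.13, adjusted p = 1.77e-08), the 1 member past a fold of 1.5, lies in the chromosome 4 window with a median of 0.33. Homologous recombination and Fanconi genes were higher for 15 of 31 and lower for 3. BRCA2 (0.56, adjusted p = 0.00109), XRCC2 (0.56, adjusted p = 1.85e-04) and RAD54L (0.50, adjusted p = 6.37e-05) were higher, with no member past a fold of 1.5. BRCA1 (-0.25) and NBN (-0.57) were lower but lie in windows with medians of -0.47 and -0.38, and against its window BRCA1 was higher, at 0.22 (adjusted p = 0.0162).

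Of p53 targets 6 of 22 were higher and 9 lower. GADD45A (1.48, adjusted p = 5.08e-10) was higher, the cell cycle inhibitor CDKN1A (-0.75, adjusted p = 1.21e-05) lower, and MDM2 did not pass (-0.08). Of BCL2 family and caspase genes 6 of 26 were higher and 7 lower (23.1% and 26.9%), near the 18.5% and 20.2% of all genes. BBC3 (0.78, adjusted p = 0.00111) and BCL2L11 (-1.11, adjusted p = 1.21e-07), which both encode death-promoting BH3-only proteins, differed in opposite directions, and the survival gene MCL1 was lower (-0.43, adjusted p = 3.57e-06) while BCL2 did not pass (0.02).

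The partners of RSF1 differed little. Of 14 ISWI and RSF1 partners tested, 4 were higher, 4 lower and none passed against a fold of 1.5. SMARCA5, the ATPase of the complex, stood at 138, 135 and 129 CPM with RSF1, 109.7, 126 and 121 CPM with RSF1delUAB and 217 ± 10.8 CPM with control vector, and did not pass (log2 fold change 0.17 ± 0.07 SE, adjusted p = 0.0507). Both forms were below the control, and the small difference passed under other scalings, at 0.18 to 0.21. SMARCA1 (-0.05) and the centromeric histone CENPA (0.04) did not pass, and the largest values were HMGB1 at 0.35 and BAZ2B at -0.35.

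Genes of the Polycomb complexes and of the enzymes that remove ubiquitin from H2A were lower for 14 of 40 and higher for 5, with a median of -0.10 and none past a fold of 1.5. Of the ligases that write the H2A mark, RNF2 was at 24.4 ± 0.772 against 30.2 ± 1.86 CPM (-0.31, adjusted p = 0.00567) and RING1 did not pass (0.07, adjusted p = 0.548). The Polycomb genes CBX7 (-0.67, adjusted p = 3.74e-04), CBX2 (-0.60, adjusted p = 4.59e-04) and CBX8 (-0.60, adjusted p = 3.54e-04) were lower. Of PRC2, EED (0.56, adjusted p = 1.14e-04) and EZH2 (0.31, adjusted p = 0.00364) were higher and SUZ12 (-0.40, adjusted p = 1.64e-04) and EZH1 (-0.57, adjusted p = 4.63e-06) lower, the latter pair in chromosome 17 windows with medians of -0.36 and -0.47. KDM2B, on chromosome 12, and PCGF2 and USP22, on chromosome 17, also lie in lowered windows (-0.42, -0.36 and -0.46). EED lies in a raised window of chromosome 11, with a median of 0.28, and measured against that median it was 0.28 (adjusted p = 0.0297). Of the deubiquitinases, USP16 was higher (0.45, adjusted p = 1.70e-04) and BAP1, MYSM1 and USP21 did not pass (-0.03, 0.05 and -0.02). USP22 was lower, with -0.37 (adjusted p = 6.24e-08) in the fit without RSF1 replicate 1. Measured against its window median it was -0.01 (adjusted p = 0.95).

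HOX genes, classical targets of Polycomb silencing, were tested for 23 of 39 listed, of which 2 were higher and 9 lower. Among the lower ones were HOXB4, HOXB5 and HOXB6, in the chromosome 17 window with a median of -0.47, and against that window the counts were 6 higher and 4 lower. HOXD13 (-0.91, adjusted p = 0.0016) and HOXD8 (-0.72, adjusted p = 2.28e-05) were lower outside it. HOXC9, at 1 count in the RSF1delUAB libraries, had an RSF1 over RSF1delUAB ratio of 93.6 (95% counting interval 16.3 to 3741). Of 37 other developmental regulators known as Polycomb targets and tested here, 7 were higher and 12 lower, and another 28 of the 65 listed were too scarce to test. SOX4, at 81.1 ± 1.91 against 204 ± 7.94 CPM (-1.33, adjusted p = 3.11e-12), and GATA2 (-1.14, adjusted p = 3.90e-05) were lower, and FOXA2 was higher (1.82, adjusted p = 3.64e-05). Of 10 replication-dependent histone genes tested in this poly-A RNA, H2BC12 was higher (0.99, adjusted p = 2.64e-04) and the others did not pass.

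The 12 largest differences on each side also held genes of other functions. LCP1, plastin, an actin-bundling protein typical of leukocytes, stood at 39.8, 47.3 and 45.8 CPM with RSF1 and 0.691, 0.693 and 0.739 CPM with RSF1delUAB, with 1 control library at 0.0664 CPM and the other two at 0 counts (log2 fold change 5.95 ± 0.16 SE, adjusted p = 7.84e-16). ENPP4 (3.22), the ubiquitin ligase TRIM31 (3.13), ARFGEF3 (3.80) and the long non-coding RNA SIRLNT (3.01) completed the higher side. HMCN1, hemicentin, had the largest negative difference among genes of mean log2 CPM 2 or more whose groups were separate, at 3.26, 8.07 and 6.22 CPM with RSF1 against 80.0, 83.8 and 86.5 CPM with RSF1delUAB (log2 fold change -3.83 ± 0.16 SE, adjusted p = 2.03e-13). RSF1 was at the control level of HMCN1, 6.11 ± 0.636 CPM, and RSF1delUAB far above it. The exchange factor VAV3 (-3.22), the raft protein MAL (-3.32), TMEM59L (-3.31), ASRGL1 (-3.10) and the folate receptor FOLR1 (-2.94) were lower.

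Markers of other cells were checked against these differences. Summed over 8 immune cell markers, levels were 2.28 to 2.48 CPM with RSF1 and 1.97 to 2.20 CPM with RSF1delUAB, with CD3E and CD163 at 0 counts in both, and neither of the 2 tested markers passed. PTPRC, the marker of all leukocytes, had 14 counts over the 3 RSF1 libraries and 3 over the RSF1delUAB libraries, so the marker was near 0 in all 6 libraries. Of 9 fibroblast markers 6 could be tested, of which 4 were lower and none higher, and their summed level was 53.4 to 55.3 CPM with RSF1, 121.7 to 133.3 CPM with RSF1delUAB and 6.42 to 8.03 CPM with control vector. LUM had the most counts of the list in both forms, 1002 with RSF1 and 4216 with RSF1delUAB, followed by COL1A1 with 892 and 916. PDGFRB was at 0 counts with RSF1delUAB, and the part of fibroblast-like cells in the matrix genes was not tested. Endothelial markers summed to 0.699 to 1.01 CPM with RSF1, 0.677 to 0.924 with RSF1delUAB and 5.36 to 7.63 with control vector. Of 11 tested ovarian and Muellerian markers of the line itself, 3 were higher (27.3%) and 6 lower (54.5%). PAX8 was clearly present in both forms (383 ± 24.8 and 280.1 ± 7.62 CPM, 0.45, adjusted p = 6.84e-06), MUC16 had 4 and 0 counts, and CD24 was lower (144 ± 13.7 against 539 ± 17.0 CPM, -1.90, adjusted p = 3.80e-14). Beside PAX8, MSLN and KRT7 were higher, and beside CD24, ERBB2, FOLR1, EPCAM, SOX17 and KRT8 were lower.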

How the data were processed

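RNA-seq of SKOV3 cells (TRIzol, poly-T beads, random hexamer priming, per the labels' protocols) was deposited as 1 table of read counts per gene for the 9 SKOV3 libraries. Per the submitters' processing notes the authors used FastQC, STAR 2.7.9a and Subread with the human build GRCh38. Which annotation was counted, and whether by strand, is not given in the sources used here, so overlapping and antisense genes and close copies are uncertain. The deposited counts are whole numbers, not normalized. The table holds 62703 genes, 62625 with a symbol, and 1 record split over 3 lines was rejoined. The 4 libraries of the other cell line were not used here.

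The 9 SKOV3 libraries (total counts 15194678 to 18748009) were fitted together with edgeR 4.0.16 in R 4.3.3, by its quasi-likelihood test with TMM scaling and a filter at a minimum count of 10 (filterByExpr), and RSF1 was contrasted with RSF1delUAB. Adjusted p-values are Benjamini-Hochberg over all 16735 genes tested, with a threshold of 0.05. Unless another tool is named, every adjusted p comes from this fit. Standard errors were taken from the fold change and its F statistic (the size of the log2 fold change divided by the square root of F). Fold bounds set a group at 0 counts to 3 counts over its 3 libraries, and ratios with 1 to 3 counts carry a 95% interval for counting error only. Tested on simulated data for this contrast over 14179 genes, the procedure recovered 85.1%, 94% and 100% of genes changed 1.5-, 2- and 4-fold, and 8.37% of its calls were false, above the threshold. The simulation changed only a small part of the genes. It held neither the length trend of RSF1 replicate 1 nor shifts of chromosomal blocks, so these shares need not hold for the calls reported here. Alternatives were other scalings, count filters, DESeq2 1.42.0, voom in limma 3.58.1, a test against a fold of 1.5, a replicate block, each library left out and, added after seeing the data, an offset by the median of each 10 Mb window with at least 20 protein-coding genes.

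The comparison and the gene lists were chosen with earlier results of these data known. A rule set which genes could be named. It took RSF1 and the 12 largest called differences on each side among genes of mean log2 CPM 2 or more whose groups were separate. It also took up to 6 called members per list and direction with a mean log2 CPM of 1 or more. From the lists of RSF1 partners, of Polycomb and H2A deubiquitinase genes and of NF-kappaB genes it took all members. Not every gene that the rule took is named in the text. Genes named beyond the rule, among them all members of other lists given as not passing, were chosen after their values were seen. Promoters are RefSeq's (GRCh38.p14). Some genes are not reported here by name, although counts over lists include them.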

Additional observations from a re-analysis of the deposited data

How the results depend on the processing

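Among genes named as passing, none changed direction under the alternatives other than the offset by window. The number of genes called stayed within 1.5 times the 3088 higher and 3380 lower under other scalings (3183 and 3282 with DESeq2's size factors, 3543 and 2970 with the upper quartile, 3207 and 3242 with library totals), DESeq2 (2992 and 3135), voom (3088 and 3416), other count filters (3181 and 3335 with at least 1 count, 2805 and 3001 with a minimum of 50) and the 6 construct libraries alone (2850 and 2984). Leaving out 1 library gave 2577 to 3374 higher and 2848 to 3707 lower, and 0.51 to 0.64 for the RSF1 gene. Tested against a fold of 1.5 the counts were 639 and 705, and the RSF1 gene, at 0.56, did not pass.

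With the replicate number as a block the counts were 3012 and 3321. The labels do not tie equal numbers to a shared culture or day, and deviations of equal-numbered libraries correlated at 0.0712, 0.0644 and -0.00263. Replicates 1 and 2 correlated best with their own number, while RSF1 replicate 3 did so with RSF1delUAB replicate 2 (0.029).

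The offset by window, chosen after seeing the data, gave 2997 higher and 2910 lower and shared 5152 of 6468 calls, 19 of them with the opposite sign. Under it KRT19 (0.12), TOP2A (0.06), KRT8 (0.02), CHRAC1 (0.01), HOXB6 (0.00) and PCGF3 (-0.02) changed sign and did not pass, and BRCA1 (0.22, adjusted p = 0.0162) changed sign and passed. The calls on EZH1, KDM2B, USP22, PCGF2, SUZ12, JUP, HMGB1, HOXB4 (-0.10), HOXB5 (-0.19), ITGB1 (0.14), EBI3 (-0.85) and PTGS1 (-0.23) were lost. Whether these windows differ in copy number was not tested.

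Without RSF1 replicate 1, some genes given as not passing passed with small differences, among them VEGFA (0.15), TEAD1 (0.15), SMARCA5 (0.15), ID1 (-0.16), TXN (-0.19) and MVD (-0.24). The filter on low counts left 45968 genes untested.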

Other observations

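Some genes were read in 1 form only. With a mean of at least 1 CPM in the RSF1 libraries and 0 counts in all 3 RSF1delUAB libraries there were 15 genes, 8 of them protein-coding, and 8 of the 15 were at 0 counts in the control as well. Beside POSTN, they included the GABA receptor subunit GABRA3, at 4.83, 5.02 and 4.78 CPM with RSF1, which is at least 85.1-fold higher than with RSF1delUAB. It had 0 counts in the control as well. SIRPB1 stood at 3.33, 4.13 and 3.52 CPM (at least 63.9-fold) and the myosin light chain MYL9 at 2.41, 2.03 and 3.08 CPM (at least 43.8-fold). The fibrillin FBN2 had another order, with its highest level in the control (13.0 ± 0.363 CPM), 3.39, 3.87 and 6.22 CPM with RSF1 and 0 counts with RSF1delUAB. These genes were chosen after their values were seen.

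Another 5 of the 15, CYP4F34P, LINC00408, ANKRD20A9P, GGT4P and SNX18P26, lie together on chromosome 13, between 18253526 and 18935554. Their means with RSF1 were lowest for SNX18P26 (1.02 CPM) and highest for CYP4F34P (5.2 CPM), and GGT4P was higher in the control (7.27 CPM). They are pseudogenes and a long non-coding RNA, and reads of near-identical copies elsewhere could not be told apart from theirs.

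In the other direction, 5 genes had at least 1 CPM with RSF1delUAB and 0 counts in all 3 RSF1 libraries, 2 of them protein-coding. The calcium channel subunit CACNG4 stood at 3.78 ± 0.524 CPM (SD, n = 3) with RSF1delUAB and 1.14 ± 0.755 CPM in the control, at least 59.2-fold lower with RSF1. UNC13C, which primes synaptic vesicles, stood at 1.33, 0.751 and 1.60 CPM with RSF1delUAB and at 0 counts in the control, at least 19.1-fold lower with RSF1.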
